A study of Mus musculus with 6 samples.

Results

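The 41 genes described here encode the core machinery of cell cycle entry, DNA replication and mitosis, with a pair of inhibitors of that machinery. They were chosen by symbol from their known roles, with a rule that uses no measured value, though earlier results of these data were known by then. Every one of them was found among the 16638 genes of the deposited mouse liver table. 18 belong to the G1/S and replication class, 21 to the G2/M and mitosis class, and 2 are inhibitors of cyclin-dependent kinases (CDKs). RNA-seq was done on 6 livers of obese mice. 3 were from mice treated with hippuric acid (HA), the glycine conjugate of benzoic acid, given over 5 weeks as 2 intraperitoneal injections a week of 60 mg/kg each. The other 3 were labelled PBS (phosphate-buffered saline), on a schedule that the labels do not state. The labels give no strain, sex, age or cause of obesity, nor do they say whether each liver came from a different animal. The p-values therefore reflect how far these 6 samples spread, part of which may be technical.

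A cell enters the cycle when D-type and E-type cyclins switch on CDKs, which free the E2F transcription factors and so turn on the genes of DNA replication. Origins of replication are loaded with the MCM helicase by Cdc6 and Cdt1, nucleotides are supplied by enzymes such as ribonucleotide reductase, and Cdk1 with cyclins A and B later drives mitosis, when a second wave of genes is transcribed. Most hepatocytes of an adult liver are out of the cycle, and they re-enter it after injury or loss of tissue, so that transcripts of mitosis are scarce in whole liver.

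The promoters of the 2 waves carry different short motifs, and these are shown for 3 genes of each wave. Every gene shown holds the motif of its wave, which is not so of all members, as counted below. Whether the motifs bear on the values given later was not tested. Each line gives the 300 bases around the start site, most of them before it, from the RefSeq promoter table (mouse build GRCm38.p6), read 5′ to 3′ on the strand of the gene. Capitals mark E2F sites (TTTCGCGC, TTTGGCGC, TTTCCCGC or TTTGCCGC) and the cell cycle homology region (CHR, TTTGAA), each searched on both strands, so that a motif may also appear as its reverse complement. Cdt1 lies at chr8:122567765-122568064 on the plus strand, Mcm3 at chr1:20820263-20820562 on the minus strand and Mcm6 at chr1:128359656-128359955 on the minus strand. Mki67 lies at chr7:135716330-135716629, Top2a at chr11:99024140-99024439 and Cdk1 at chr10:69352863-69353162, all on the minus strand.
Cdt1: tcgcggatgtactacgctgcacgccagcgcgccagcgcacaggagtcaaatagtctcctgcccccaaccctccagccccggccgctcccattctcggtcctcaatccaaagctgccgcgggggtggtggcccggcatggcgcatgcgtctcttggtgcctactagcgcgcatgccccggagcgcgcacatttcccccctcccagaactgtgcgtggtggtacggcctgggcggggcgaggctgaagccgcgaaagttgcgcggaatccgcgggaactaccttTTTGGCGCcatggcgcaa
Mcm3: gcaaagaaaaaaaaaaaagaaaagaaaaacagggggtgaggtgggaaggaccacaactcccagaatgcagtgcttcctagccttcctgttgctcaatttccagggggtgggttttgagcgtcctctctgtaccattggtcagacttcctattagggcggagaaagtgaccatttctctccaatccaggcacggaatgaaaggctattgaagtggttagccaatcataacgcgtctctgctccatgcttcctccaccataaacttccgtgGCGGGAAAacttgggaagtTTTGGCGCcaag
Mcm6: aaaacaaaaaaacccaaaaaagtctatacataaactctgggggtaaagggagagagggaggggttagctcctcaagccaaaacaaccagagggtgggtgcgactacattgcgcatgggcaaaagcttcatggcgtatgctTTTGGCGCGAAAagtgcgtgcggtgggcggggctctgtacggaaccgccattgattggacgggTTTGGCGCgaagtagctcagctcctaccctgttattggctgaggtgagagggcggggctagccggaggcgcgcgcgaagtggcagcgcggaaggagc
Mki67: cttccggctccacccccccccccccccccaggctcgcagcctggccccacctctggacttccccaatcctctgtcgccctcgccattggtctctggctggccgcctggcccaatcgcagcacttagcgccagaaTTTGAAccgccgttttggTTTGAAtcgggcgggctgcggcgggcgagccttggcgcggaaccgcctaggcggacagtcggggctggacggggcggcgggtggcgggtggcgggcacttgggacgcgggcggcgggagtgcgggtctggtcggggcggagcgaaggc
Top2a: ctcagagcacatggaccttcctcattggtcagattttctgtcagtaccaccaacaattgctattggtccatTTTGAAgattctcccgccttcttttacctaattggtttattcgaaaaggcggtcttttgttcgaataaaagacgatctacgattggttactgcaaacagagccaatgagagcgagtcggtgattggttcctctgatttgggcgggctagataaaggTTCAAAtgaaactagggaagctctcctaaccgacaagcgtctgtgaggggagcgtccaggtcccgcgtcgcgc
Cdk1: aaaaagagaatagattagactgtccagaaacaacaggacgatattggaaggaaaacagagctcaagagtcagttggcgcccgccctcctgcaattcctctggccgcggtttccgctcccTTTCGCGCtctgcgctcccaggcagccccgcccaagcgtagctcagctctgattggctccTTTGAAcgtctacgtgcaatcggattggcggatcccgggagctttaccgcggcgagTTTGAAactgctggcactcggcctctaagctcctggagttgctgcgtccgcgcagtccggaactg

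Promoters were found for 15 of the 18 G1/S members, 16 of the 21 G2/M members and both inhibitors. Where a gene had more than 1 promoter in the table, a match in any of them was counted. An E2F site was present in 7 of the 15 G1/S genes (46.7%) and in 1 of the 16 G2/M genes (6.25%), Cdk1, against 2.6% of all 27025 genes with promoters of the same length. Mcm6 held 3 such sites, of which the first pair overlapped, Mcm3 held 2 and Cdt1 held 1. The CHR was present in 11 of the 16 G2/M genes (68.8%), with 2 copies each in Mki67, Top2a and Cdk1. It was present in 1 of the 15 G1/S genes (6.67%), Mcm2, against 20.2% of all genes. The CCAAT box (CCAAT, either strand), bound by the NF-Y factor, was present in 15 of the 16 G2/M genes (93.8%) and 9 of the 15 G1/S genes (60.0%), against 41.1% of all genes. Neither inhibitor held an E2F site or a CHR. These matches describe the letters of the windows and are not evidence of binding in these livers.

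Each library held between 37921444 and 39908844 fragments, worked back from the deposited FPKM values (fragments per kilobase of gene after scaling to library depth). The totals are those that made gene lengths whole, and each gene's fragments are the smallest whole numbers that give its values. A common factor could therefore remain, which would raise the fragment counts printed here and narrow their intervals in relative terms. The hepatocyte markers summed to 90660 to 106880 FPKM in the HA livers and 66114 to 76804 FPKM in the PBS livers, so the labelled tissue was found in all 6 libraries. PBS replicate 1 also carried transcripts of other tissues. Its markers of adrenal cortex summed to 62.1 FPKM, against at most 0.391 FPKM in any other library, and its markers of skeletal muscle to 55.5 FPKM, against at most 1.39 FPKM. Across the 10745 genes that averaged 0.5 FPKM or more, 31 rose and 55 fell with HA (limma, Benjamini-Hochberg adjusted p under 0.05). The split between directions moved with the scaling: 36 rose and 32 fell after centring each library on its median, 33 rose and 24 fell on FPKM rescaled to the fragments outside albumin, and 28 rose and 19 fell when the recovered fragments were tested on median-ratio depths. With 1 library left out, 17 rose and 18 fell without HA replicate 1, 47 and 70 without HA replicate 2, and 10 and 27 without HA replicate 3. The counts were 3 and 4 without PBS replicate 1, 1 and 7 without PBS replicate 2, and 5 and 6 without PBS replicate 3.

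None of the 41 cell cycle genes passed the test for a difference between HA and PBS livers. 20 members reached the expression minimum and were tested: 16 of G1/S, 2 of G2/M and both inhibitors. 0 passed in either direction, against 0.8% of all tested genes, 0.289% higher with HA and 0.512% lower. At an unadjusted p under 0.05, 3 members (Ccnd1, Cdt1 and Mcm3) were higher with HA and 0 were lower, against 4.61% and 13.1% of all tested genes. When voom, limma's method for counts, was run on the recovered fragments of all 16638 genes with no minimum, 0 of the 41 members passed, against 0.228% of genes higher and 0.499% lower, and 4 were at an unadjusted p under 0.05 (Ccnd1, Cdt1, Birc5 and Aurkb, all higher with HA), against 5.1% of genes at that p and higher. Without HA replicate 1 the same test passed 0 members, against 0.343% of genes in either direction. The smallest adjusted p of a member was 0.116 in the test of log2(FPKM + 1), for Ccnd1, and ranged from 0.0933 to 0.286 over the alternatives. A p above the threshold does not show that the levels were equal.

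**Figure D1:**
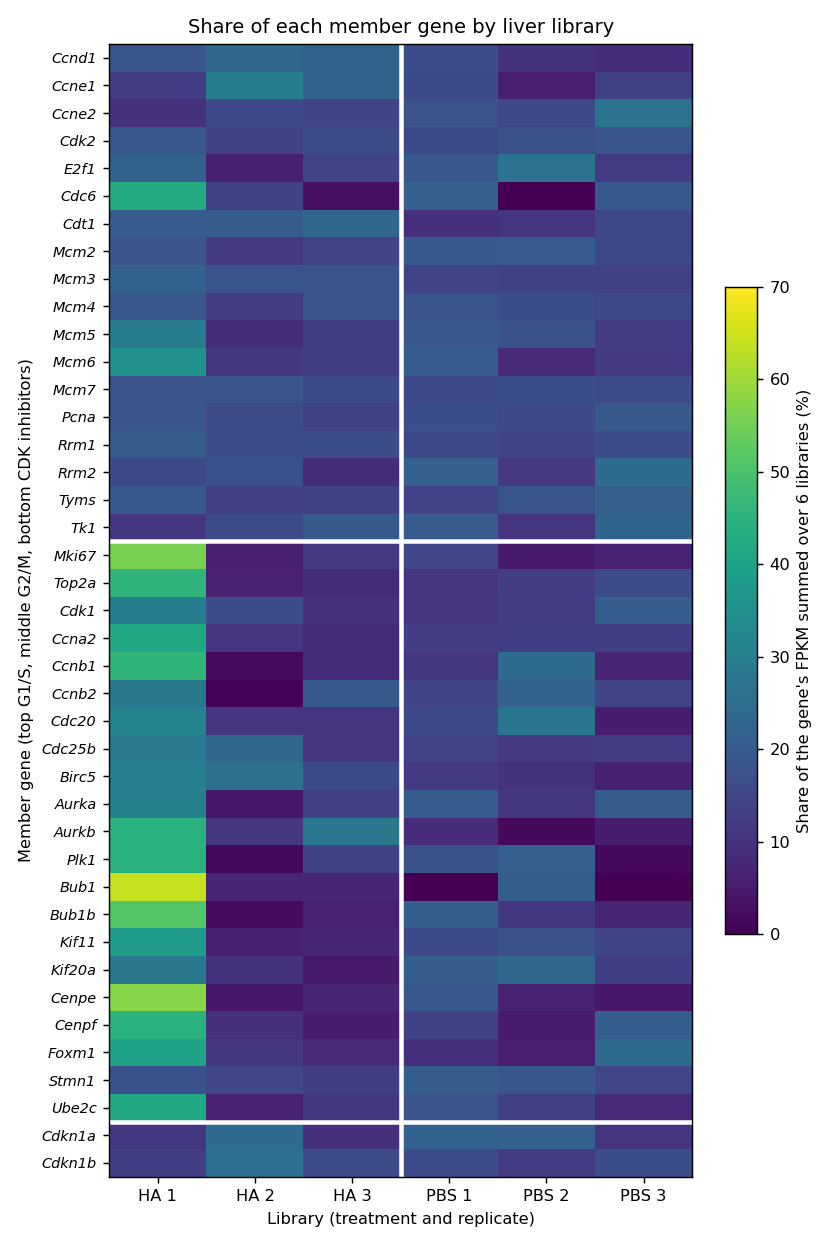
Each row is 1 of the 41 genes and each column 1 liver library, HA left of PBS; colour gives the share of the gene's FPKM, summed over 6 libraries, that the library held, in percent. The G2/M block is brightest in HA replicate 1, which was the highest library in 20 of its 21 genes, while the G1/S block has no such column.

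The classes differed in level. Over the 6 libraries, the median of the members' mean FPKM was 1.01 for G1/S genes, 0.234 for G2/M genes and 5.83 for the inhibitors, against 1.61 for all genes in the table. 21 members lay under the minimum of 0.5 FPKM: Cdc6 and Mcm5 of G1/S and 19 of G2/M, so the tests below are mainly of G1/S genes. In whole liver, fewer cells of a type and less RNA per cell cannot be told apart. The map of library shares shows how the 2 classes behaved. The G2/M genes were concentrated in HA replicate 1, and the G1/S genes were more spread over the libraries. HA replicate 1 was still the highest library in 38.9% of the G1/S genes, against 14.8% of all tested genes.

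Ccnd1 encodes cyclin D1, the D-type cyclin that carries growth signals into the cycle and rises early when hepatocytes leave quiescence. It measured 11.8, 14.6 and 14.0 FPKM in HA livers, against 10.4, 6.42 and 5.63 FPKM in PBS livers. All 3 HA livers lay above all 3 PBS livers, but the lowest HA liver was close to PBS replicate 1. The mean was 13.5 ± 1.47 FPKM with HA and 7.49 ± 2.58 FPKM under PBS (SD, n = 3 each), a ratio of 1.80. On the log2(FPKM + 1) scale the difference was 0.81 (SE 0.21, 95% interval 0.33 to 1.29, limma adjusted p = 0.116). It ranged from 0.65 to 1.04 when 1 library was left out.

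The E-type cyclins, which act next with Cdk2, did not move together. Ccne1 measured 0.494, 1.15 and 0.863 FPKM under HA, against 0.615, 0.231 and 0.535 FPKM under PBS, and the groups overlapped (log2 difference 0.32, SE 0.16, limma adjusted p = 0.347). Ccne2 measured 0.367, 0.554 and 0.534 FPKM under HA, against 0.661, 0.569 and 0.988 FPKM under PBS (log2 difference -0.22, SE 0.12, limma adjusted p = 0.369). It was the 1 tested member whose HA livers all lay below the PBS livers, and the gap between the nearest livers was small. Their partner Cdk2 averaged 3.64 ± 0.641 FPKM with HA and 3.84 ± 0.299 FPKM under PBS (SD, n = 3 each), with overlapping groups. E2f1, an activator of replication genes, varied more within a group than between groups: 1.14, 0.321 and 0.740 FPKM under HA, against 0.992, 1.40 and 0.642 FPKM under PBS (log2 difference -0.22, SE 0.20, limma adjusted p = 0.594).

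The 2 factors that load the MCM helicase were at very different levels. Cdt1, the loading factor whose promoter is shown above, measured 1.04, 1.04 and 1.19 FPKM in HA livers, against 0.491, 0.549 and 0.776 FPKM in PBS livers. All HA livers were above all PBS livers, at a ratio of means of 1.80, and the counts behind it were 90, 87 and 99 fragments with HA and 42, 48 and 65 with PBS. The log2(FPKM + 1) difference was 0.38 (SE 0.10, limma adjusted p = 0.123), and it ranged from 0.33 to 0.46 with 1 library left out. Cdc6, which acts with Cdt1, was under the minimum, with 16, 5 and 1 fragments with HA and 8, 0 and 7 with PBS. No difference in Cdc6 was detectable at this depth.

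The 6 subunits of the MCM helicase, which unwinds DNA at the replication fork, did not share a pattern. Mcm3 measured 1.39, 1.16 and 1.16 FPKM under HA, against 0.920, 0.883 and 0.854 FPKM under PBS, and the groups did not overlap (log2 difference 0.25, SE 0.09, limma adjusted p = 0.218). Mcm6 measured 1.73, 0.555 and 0.637 FPKM under HA, against 1.0, 0.407 and 0.585 FPKM under PBS. Replicate 1 of each group stood above the others, and the log2 difference of 0.21 (SE 0.23, limma adjusted p = 0.663) became -0.05 without HA replicate 1. Mcm2 measured 1.06, 0.675 and 0.821 FPKM under HA, against 1.12, 1.14 and 0.885 FPKM under PBS (log2 difference -0.15, SE 0.11, limma adjusted p = 0.514). Mcm4 averaged 1.12 ± 0.245 FPKM with HA and 1.15 ± 0.0959 FPKM under PBS, and Mcm7 averaged 3.51 ± 0.267 FPKM with HA and 3.29 ± 0.155 FPKM with PBS (SD, n = 3 each), both with overlapping groups. Mcm5, under the minimum, measured 0.702, 0.221 and 0.307 FPKM under HA, against 0.454, 0.415 and 0.289 FPKM under PBS. Summed over the 6 subunits, CPM (fragments scaled to library size, not per length) was 33.0, 22.6 and 23.8 in HA livers and 26.1, 23.9 and 22.3 in PBS livers. HA replicate 1 was the highest library, PBS replicate 1 came next, and the rest lay between 22.3 and 23.9.

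Pcna encodes the sliding clamp of the replicative polymerases and was the most abundant member per length. It measured 21.6, 18.6 and 16.2 FPKM under HA, against 19.8, 18.0 and 22.7 FPKM under PBS, with overlapping groups (log2 difference -0.10, 95% interval -0.42 to 0.22, limma adjusted p = 0.723). Rrm1, the large subunit of ribonucleotide reductase, measured 3.1, 2.5 and 2.54 FPKM under HA, against 2.31, 2.21 and 2.42 FPKM under PBS. All HA livers lay above all PBS livers by a narrow margin (log2 difference 0.16, SE 0.10, limma adjusted p = 0.438). Its small subunit Rrm2, the one made in S phase, leaned the other way in the means, at 1.31, 1.49 and 0.786 FPKM with HA and 1.82, 0.988 and 2.08 FPKM under PBS (log2 difference -0.25, SE 0.20, limma adjusted p = 0.530). The thymidylate enzymes overlapped between groups: Tyms averaged 0.854 ± 0.191 FPKM with HA and 0.995 ± 0.205 FPKM under PBS, and Tk1 10.2 ± 2.75 FPKM with HA and 11.7 ± 4.07 FPKM with PBS (SD, n = 3 each).

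**Figure D2:**
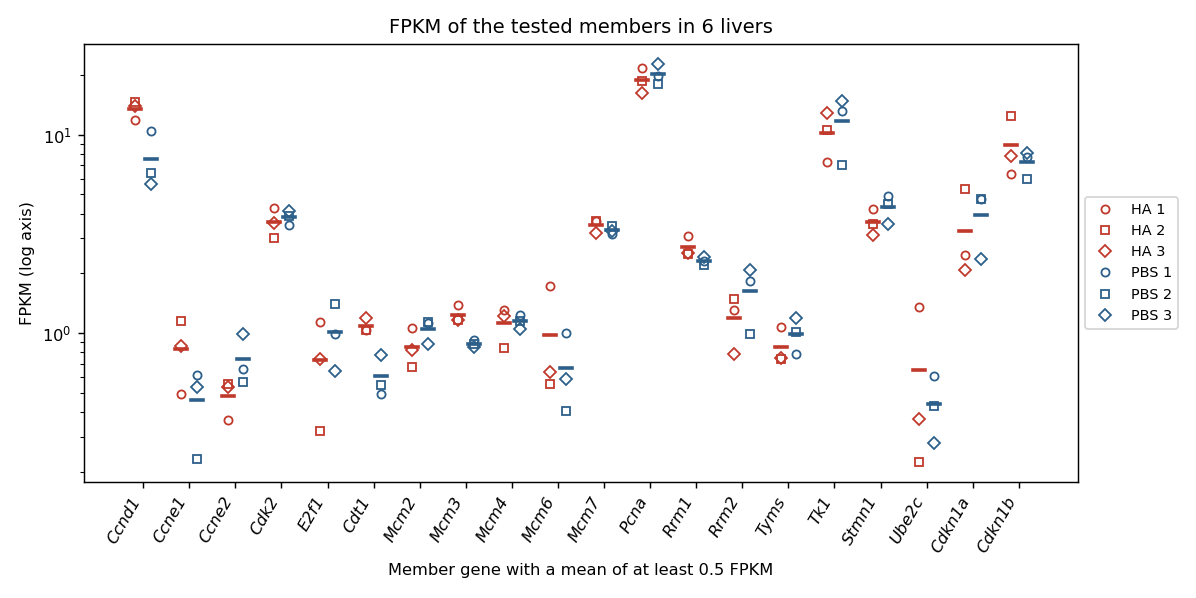
FPKM on a log axis for the 20 tested members, with the 3 HA livers in red left of the 3 PBS livers in blue; symbols mark replicates and short lines group means. All HA symbols lie above all PBS symbols for Ccnd1, Cdt1, Mcm3 and Rrm1 and below them for Ccne2, by narrow gaps for Rrm1 and Ccne2, and the rest overlap.

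Of the 20 tested members, 4 had all HA livers above all PBS livers (Ccnd1, Cdt1, Mcm3 and Rrm1), against 6.47% of all tested genes, and 1 had all HA livers below (Ccne2), against 19.2%. The plot of FPKM by gene shows these gaps as narrow for Rrm1 and Ccne2 and wider for Cdt1 and Mcm3. The median log2 difference of the 16 tested G1/S members was -0.05, beside -0.06 for all tested genes, and 7 of the 16 were positive. The sign of this median turned with the scaling, to 0.02 after median centring and 0.01 when FPKM was rescaled to the fragments outside albumin. Summed over all 18 G1/S genes, CPM was 159.9, 154.0 and 155.1 in HA livers and 150.2, 119.3 and 140.2 in PBS livers. Ccnd1 and Pcna make up much of these sums, which are not per length. As FPKM, which is per length, the same genes summed to 63.4, 61.7 and 61.2 in HA livers. In PBS livers they summed to 62.6, 49.8 and 62.8 FPKM, so the groups overlapped in that unit.

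**Figure D3:**
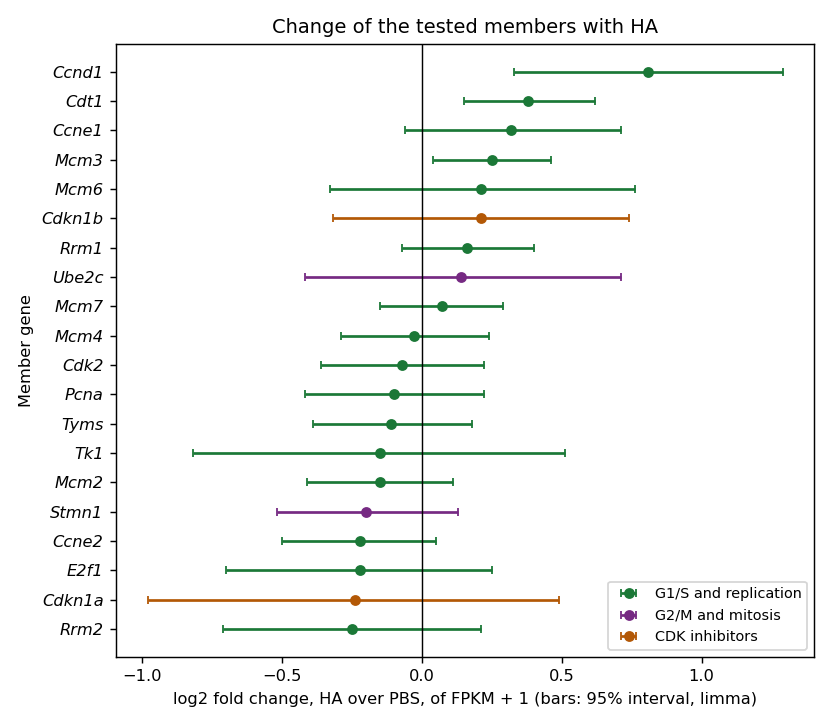
The log2 difference of FPKM + 1, HA over PBS, for each of the 20 tested members, with its 95% interval from limma, coloured by class. The intervals of Ccnd1, Cdt1 and Mcm3 lie above 0 before adjustment and the other 17 include it.

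The 2 CDK inhibitors were each highest in HA replicate 2. Cdkn1a encodes p21, which is induced by p53 and halts the cycle in G1; it measured 2.47, 5.30 and 2.07 FPKM under HA, against 4.74, 4.75 and 2.35 FPKM under PBS (log2 difference -0.24, 95% interval -0.98 to 0.49, limma adjusted p = 0.720). Cdkn1b encodes p27, which holds resting cells out of the cycle, and measured 6.30, 12.4 and 7.82 FPKM under HA, against 7.71, 5.99 and 8.12 FPKM under PBS (log2 difference 0.21, 95% interval -0.32 to 0.74, limma adjusted p = 0.653). In both genes the groups overlapped, and for Cdkn1b the difference became -0.04 without HA replicate 2. The plot of log2 differences shows that the interval of Cdkn1a was the widest among the tested members, so a difference of moderate size in either direction would have gone undetected.

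The G2/M and mitosis genes were set apart by 1 library. HA replicate 1 was the highest of the 6 libraries in 20 of the 21 members (95.2%), against 14.8% of all tested genes and 15.4% of genes under the minimum. The exception was Stmn1, a microtubule-destabilising protein, which was highest in PBS replicate 1. Among G1/S members HA replicate 1 was highest in 7 of 18 (38.9%). The other HA livers did not share this: the mean of all 3 HA livers exceeded the PBS mean in 17 of the 21 G2/M genes, and the mean of HA replicates 2 and 3 exceeded it in 5.

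Without Stmn1, G2/M members summed to 34.5 CPM in HA replicate 1 (exact 95% Poisson interval 32.7 to 36.4). The other HA livers held 7.83 (6.96 to 8.76) and 9.02, and PBS livers 12.2 (11.1 to 13.4), 10.7 (9.76 to 11.8) and 9.66 (8.70 to 10.7). HA replicate 1 thus lay above every PBS library by far more than counting error. In CPM the other HA libraries lay below all 3 PBS libraries, but the intervals of both overlapped that of PBS replicate 3. The intervals cover counting error only, since fragments are not independent molecules. The sums rest on 1358, 299 and 342 fragments in HA livers and 477, 429 and 369 in PBS livers. As FPKM, the same genes summed to 9.35, 2.23 and 2.85 in HA livers and 3.7, 3.7 and 2.77 in PBS livers. In that unit HA replicate 3 lay above PBS replicate 3.

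**Figure D4:**
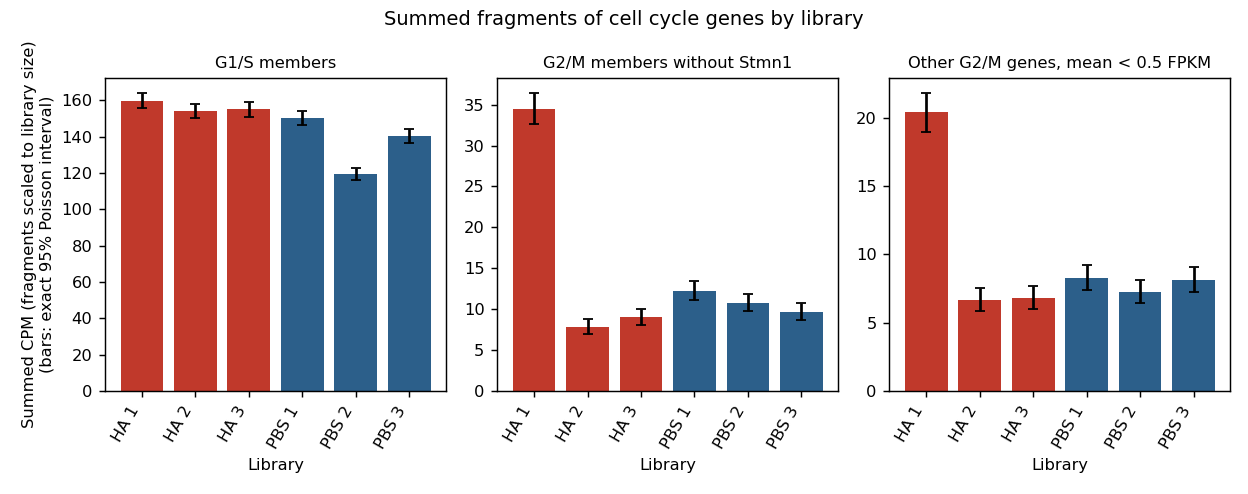
CPM summed over the G1/S members, the G2/M members without Stmn1, and other G2/M genes with a mean under 0.5 FPKM, for each library, HA in red and PBS in blue, with exact 95% Poisson intervals. HA replicate 1 stands alone in these G2/M panels, at 34.5 and 20.4 CPM, and not in the G1/S panel; over all 33 other G2/M genes, not plotted, it held 82.5 CPM and HA replicate 2 held 74.8 CPM.

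Mki67 encodes Ki-67, the coat protein of mitotic chromosomes that is used to mark cycling cells. It measured 0.907, 0.0970 and 0.195 FPKM in HA livers, against 0.242, 0.0806 and 0.107 FPKM in PBS livers, from 366, 38 and 76 fragments with HA and 97, 33 and 42 with PBS. HA replicate 1 held 8.46 times the median of the other 5 libraries, and the groups overlapped. The ratio of means, HA over PBS, was 2.79 with all livers and 1.02 without HA replicate 1. Top2a, the topoisomerase that untangles chromosomes, measured 0.718, 0.0999 and 0.141 FPKM under HA, against 0.166, 0.201 and 0.255 FPKM under PBS. Here the other HA livers lay below all 3 PBS livers, and the ratio of means moved to 0.581 without HA replicate 1, against 1.54 with it. Both genes carry 2 CHR copies in the promoters shown above.

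Cdk1, the mitotic kinase, measured 0.321, 0.181 and 0.109 FPKM under HA, against 0.118, 0.133 and 0.229 FPKM under PBS, a ratio of means of 1.28, or 0.907 without HA replicate 1. Its cyclins followed the same library. Ccna2 measured 0.693, 0.178 and 0.148 FPKM under HA, against 0.212, 0.215 and 0.217 FPKM under PBS, which were the tightest PBS values of the class. Ccnb1 rested on 46, 2 and 9 fragments with HA and 11, 25 and 7 with PBS, and its ratio of means was 1.34, or 0.398 without HA replicate 1. Ccnb2 rested on 37, 1 and 25 fragments with HA and 19, 29 and 18 with PBS, so HA replicate 3 was here within the PBS range.

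Plk1, Bub1b, Bub1 and Aurka, all mitotic kinases or checkpoint genes, had at most 25 fragments in any library outside HA replicate 1. Plk1, which drives entry into mitosis, had 31, 1 and 9 fragments with HA and 12, 15 and 1 with PBS. Bub1b, of the spindle checkpoint, had 49, 2 and 6 fragments with HA and 20, 11 and 7 with PBS, and Bub1 had 9, 1 and 1 with HA and 0, 3 and 0 with PBS. Aurka, the kinase of spindle poles, had 38, 5 and 16 fragments with HA and 25, 14 and 25 with PBS. In each of these genes HA replicate 2 had 5 fragments or fewer. Over the class, HA replicate 2 was the lowest library in 7 of 21 genes (33.3%), against 19.7% of all tested genes and 8.91% of genes under the minimum.

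The motors and kinetochore genes showed the same library order at the top. Kif11, the spindle motor, had 79, 12 and 15 fragments with HA and 32, 36 and 29 with PBS, and Kif20a, a motor of cytokinesis, 68, 24 and 12 with HA and 50, 57 and 31 with PBS. Without HA replicate 1 their ratios of means were 0.429 and 0.402, and voom on fragments gave log2 differences of -1.20 and -1.33 (adjusted p = 0.329 and 0.315). The kinetochore proteins Cenpe and Cenpf had 40 and 33 fragments in HA replicate 1, and at most 7 in the other HA livers and 15 in any PBS liver. Foxm1, which encodes the transcription factor of the mitotic wave, had 34, 9 and 7 fragments with HA and 8, 5 and 20 with PBS. The ubiquitin ligase partners Cdc20 and Ube2c, which time the exit from mitosis, measured 0.613, 0.205 and 0.207 FPKM (Cdc20) and 1.36, 0.225 and 0.368 FPKM (Ube2c) with HA. With PBS they measured 0.301, 0.534 and 0.103 FPKM (Cdc20) and 0.605, 0.431 and 0.281 FPKM (Ube2c), so both overlapped between groups.

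Birc5, Aurkb and Cdc25b departed from this pattern, being the members of the class with the highest ratios once HA replicate 1 was left out. Birc5 (survivin) and Aurkb are partners in the chromosomal passenger complex, which corrects the attachment of chromosomes to the spindle. Birc5 had 61, 51 and 31 fragments with HA and 24, 21 and 12 with PBS, and its ratio of means was 2.54, or 2.22 without HA replicate 1. Aurkb had 25, 6 and 15 fragments with HA and 5, 1 and 3 with PBS, with a ratio of 5.13, or 3.58 without that library. In both, all HA livers lay above all PBS livers, and they were the only G2/M members of which this was true. With these 2, 6 of all 41 members had HA livers entirely above PBS livers, against 7.90% of all genes in the table, and 1 of 41 lay below, against 13.8%. Neither passed the test on fragments (voom adjusted p = 0.235 for Birc5 and 0.289 for Aurkb). Their 2 further partners, Incenp and Cdca8, looked up after these values were seen, overlapped between groups. Cdc25b, the phosphatase that activates Cdk1, had 54, 42 and 19 fragments with HA and 26, 22 and 22 with PBS, and its groups overlapped.

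**Figure D5:**
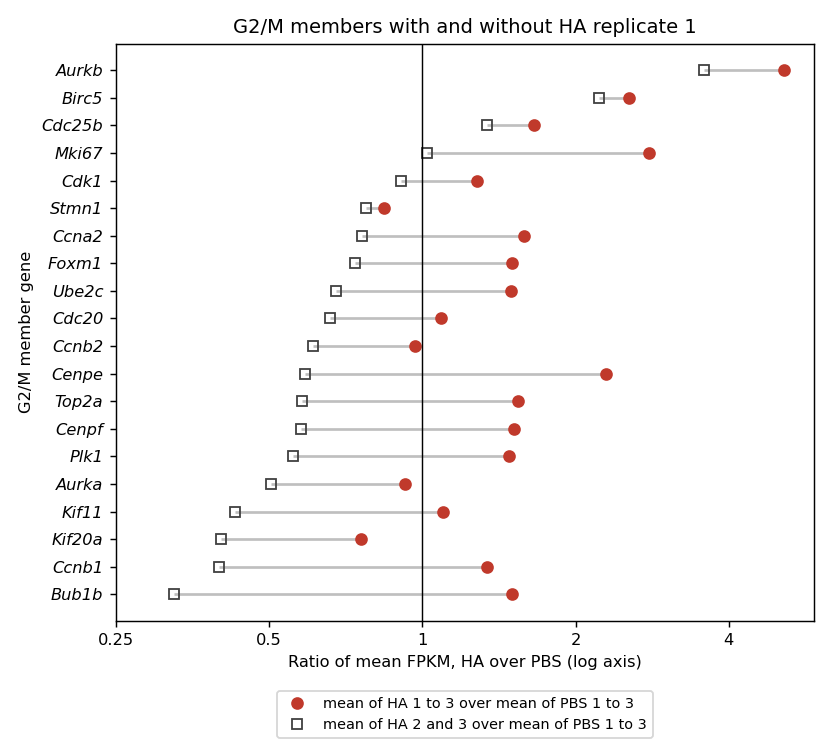
Ratio of mean FPKM, HA over PBS, on a log axis for the G2/M members, with all 3 HA livers (filled) and with HA replicates 2 and 3 only (open); Bub1, with 3 fragments in the PBS livers together, is not plotted. Most open symbols lie left of 1, and those of Aurkb, Birc5, Cdc25b and Mki67 right of it, the last at 1.02.

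Stmn1 and Ube2c were the only G2/M members above the minimum. Stmn1 measured 4.22, 3.56 and 3.13 FPKM under HA, against 4.93, 4.49 and 3.53 FPKM under PBS (log2 difference -0.20, SE 0.14, limma adjusted p = 0.495), and the groups overlapped. By voom over all 21 members, the median log2 difference was 0.23 with all livers and -0.51 without HA replicate 1, with 14 and 5 positive values. For all genes under the minimum these medians were 0.17 and 0.24. The plot of ratios shows this turn gene by gene.

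Markers of blood cells also differed between libraries. The erythroid markers summed to 701.9, 1323 and 1234 FPKM in HA livers and 228.9, 330.6 and 336.6 FPKM in PBS livers. Of the 13, the globins Hbb-bt, Hba-a1 and Hba-a2 passed the test, all higher with HA. In this test of log2(FPKM + 1) the calls were lost without any 1 of the PBS replicates, without HA replicate 3, or with no expression minimum. By voom on fragments with no minimum, 4 of the 13 passed, all higher with HA, against 0.228% of all genes. Without HA replicate 1 that count was also 4. Neutrophil and precursor markers summed to 33.9, 6.79 and 17.6 FPKM in HA livers and 3.65, 2.16 and 1.44 FPKM in PBS livers. Prtn3, proteinase 3 of granulocyte precursors, made up most of the first value, at 27.9, 1.10 and 8.26 FPKM under HA, against 0.342, 0.437 and 0.107 FPKM under PBS (limma adjusted p = 0.158, or 0.0246 without HA replicate 2). In HA replicate 1, Mpo measured 0.0200 FPKM and Camp 0 FPKM, and both were at 0 in all PBS livers. Among the 11 neutrophil and precursor markers, HA replicate 1 was the highest library in 3, HA replicate 2 in 3 and HA replicate 3 in 5. Kupffer and macrophage markers summed to 262.2, 188.8 and 333.2 FPKM with HA and 180.6, 201.4 and 179.4 FPKM under PBS. Thus the erythroid sum was lowest of the HA livers in the library with the most G2/M transcript, and the neutrophil sum was highest there; their part in the G2/M values was not tested.

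Of 32 further G1/S and replication genes, 20 were tested and 0 passed in either direction. Among all tested genes 0.8% passed, so 0 of 20 does not set the list apart. Chaf1b, a subunit of the histone chaperone CAF-1, measured 0.917, 0.912 and 0.591 FPKM under HA, against 0.393, 0.145 and 0.206 FPKM under PBS, and the groups did not overlap (log2 difference 0.53, SE 0.12, limma adjusted p = 0.0902). E2f8, an atypical E2F that represses cell cycle genes and promotes polyploid hepatocytes, measured 0.859, 0.310 and 0.852 FPKM under HA, against 1.32, 1.33 and 1.82 FPKM under PBS (log2 difference -0.59, SE 0.16, limma adjusted p = 0.134). Here all HA livers lay below all PBS livers. Gins4, of the replicative helicase, averaged 7.87 ± 0.417 FPKM with HA and 9.66 ± 0.912 FPKM under PBS, and Gmnn, the geminin that blocks Cdt1, 2.78 ± 0.637 FPKM with HA and 1.97 ± 0.264 FPKM with PBS (SD, n = 3 each). Their limma adjusted p-values were 0.246 and 0.273. HA replicate 1 was the highest library in 10 of the 32 (31.2%), against 15.0% of all genes in the table.

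Of 33 further G2/M genes in the table, 9 were tested and 0 passed, against 0.8% of all tested genes. HA replicate 1 was the highest library in 27 of the 33 (81.8%), against 15.0% of all genes in the table. Of the 33, those under the minimum summed to 20.4, 6.65 and 6.78 CPM in HA livers and 8.30, 7.22 and 8.09 in PBS livers. HA replicate 1 was the highest library in this sum. Over all 33, which include abundant genes such as Cks2 and Pttg1, the sums were 82.5, 74.8 and 58.7 CPM in HA livers and 64.9, 65.6 and 68.6 CPM in PBS livers. In that sum HA replicates 1 and 2 both lay above every PBS library and HA replicate 3 below. HA replicate 1 therefore did not stand alone in the sum over the whole list, although it was the highest library in most of its genes. Among the tested ones, Pttg1 (securin, the guard of sister chromatids) averaged 6.05 ± 0.841 FPKM with HA and 8.0 ± 1.13 FPKM under PBS (SD, n = 3 each), with no overlap and a limma adjusted p of 0.246. Hmgb2, a chromatin protein, averaged 2.16 ± 0.936 FPKM with HA and 1.24 ± 0.354 FPKM with PBS. Cks2, a CDK partner, averaged 17.2 ± 2.71 FPKM with HA and 14.5 ± 0.796 FPKM with PBS, and Smc4, of condensin, 1.77 ± 0.340 FPKM with HA and 1.5 ± 0.160 FPKM with PBS (SD, n = 3 each). The groups overlapped in these last 3 genes.

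Of 18 further brakes on the cycle, 14 were tested and 0 passed, against 0.8% of all tested genes, a share from which 0 of 14 does not depart. Btg2, an antiproliferative gene, measured 9.75, 13.1 and 6.79 FPKM under HA, against 5.38, 4.63 and 3.88 FPKM under PBS (log2 difference 0.92, SE 0.22, limma adjusted p = 0.0995). Cdkn1c encodes the CDK inhibitor p57 and measured 0.383, 1.44 and 0.548 FPKM under HA, against 1.52, 1.76 and 1.88 FPKM under PBS. Its log2 difference was -0.64 (SE 0.21, limma adjusted p = 0.175), and it passed the test without HA replicate 2 (adjusted p = 0.0334). Cdkn2c, the inhibitor p18 of the kinases that pair with D-type cyclins, measured 2.59, 2.14 and 1.59 FPKM under HA, against 1.21, 1.26 and 1.53 FPKM under PBS (limma adjusted p = 0.196). In these 3 genes the groups did not overlap, and the direction was not shared. Of the 14 tested, 2 thus lay higher and 1 lower with HA without overlap, against 6.47% and 19.2% of all tested genes. Btg1 overlapped between groups, at 9.23 ± 1.27 FPKM with HA and 10.8 ± 1.58 FPKM under PBS (SD, n = 3 each).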

How the data were processed

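RNA from 6 livers (3 HA, 3 PBS, grouped by the treatment label) was extracted with TRIzol, per the labels' protocols, which name 2 library kits without saying which was used. The authors deposited 1 table of FPKM values, made from fragments counted per gene and scaled to gene length and library depth, as the values themselves show. Its header names samples but no unit; whole fragments could be recovered, with all 99828 values (100%) whole within 0.0001. Per the submitters' processing notes, Trimmomatic, HISAT2 and GRCm39 were used. Not given in the sources used here are versions, the counter, the annotation, strand and the treatment of reads with several matches. Genes with near-identical copies, such as Tyms, are therefore uncertain.

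Tests were run in limma 3.58.1 (R 4.3.3) with values as log2(FPKM + 1), a scale that understates changes of low genes, with treatment as the only term, a variance trend and Benjamini-Hochberg adjustment over 10745 genes, those that averaged 0.5 FPKM or more. P-values are two-sided. Members under that minimum are given as values, and by voom on recovered fragments with no minimum, an alternative chosen after seeing the data, as was the same fit without HA replicate 1. The scripts were tested on simulated data. Intervals on fragments are exact 95% Poisson intervals.

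The members and lists were chosen with earlier results of these data known. Full statistics are given for Mki67, Top2a, Cdk1, Ccnb1, Ccnd1, Ccne1, Pcna, Mcm2, Cdkn1a and Cdkn1b and the 8 other members with the smallest p. Of each further cell cycle list, up to 4 genes with the smallest p are named. Mki67, Top2a, Cdk1 and Ccnb1 were under the minimum and have no limma value. Other members named beyond this rule were chosen after their values were seen. Promoters are RefSeq's, on GRCm38.p6, and no coordinate of the deposited table was used.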

Additional observations from a re-analysis of the deposited data

How the results depend on the processing

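No member passed the test in any alternative: 0 were higher and 0 lower with the expression minimum removed or doubled, with another pseudocount, trend or scaling, on recovered fragments, or without any 1 library. Of 218 values of named members above the minimum, 216 kept their direction and side of the threshold, which none passed in the main test. Mki67, Top2a, Cdk1 and Ccnb1 are not in this count. By voom with no minimum, leaving out HA replicate 1 turned the log2 difference of Top2a from 0.10 to -0.77 and of Cdk1 from 0.28 to -0.11. Mki67 (1.02 to 0.11) and Ccnb1 (-0.30 to -1.39) kept their sign. The exceptions among the 218 values were Cdkn1b, which ranged from -0.04 to 0.40 with 1 library left out (lowest without HA replicate 2), and Mcm6, from -0.05 to 0.36 (lowest without HA replicate 1). The cause was not tested. The median log2 difference of the tested G1/S members ranged from -0.07 to 0.04 with 1 library left out, the highest without HA replicate 2, and that of the 2 tested G2/M members from -0.28 to 0.07. Among all genes, the 31 that rose became 7 with no minimum and ranged from 1 to 47 with 1 library left out. The 55 that fell became 10 with no minimum, 32 after median centring, 24 on FPKM outside albumin and 19 by voom on median-ratio depths, and ranged from 4 to 70 with 1 library left out. The deviations of same-numbered HA and PBS livers had correlations of -0.138, -0.125 and 0.176. Those of differently numbered livers ranged from -0.134 to 0.217. With so few livers per group, these correlations cannot decide whether the numbers pair the samples. With the replicate number as a block, 7 genes rose and 9 fell, and no member passed. Depth limits most G2/M genes, several of which had fewer than 10 fragments in a library.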

Other observations

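Genes that feed into the cycle from outside its machinery were not described above. Of 18 p53 target genes, 14 were tested and 0 passed in either direction (limma, adjusted p under 0.05, against 0.289% of tested genes higher and 0.512% lower), while 1 was higher and 3 were lower with HA at an unadjusted p under 0.05, against 4.61% of tested genes higher and 13.1% lower. The higher one was Btg2, given above as a brake. Ei24, a p53-induced membrane protein, measured 70.0, 87.9 and 77.5 FPKM under HA, against 110.4, 119.9 and 109.1 FPKM under PBS (log2 difference -0.53, SE 0.11, adjusted p = 0.0853). Plk3, a stress-induced relative of Plk1, measured 11.8, 5.26 and 12.0 FPKM under HA, against 21.5, 25.6 and 47.5 FPKM under PBS (log2 difference -1.60, SE 0.37, adjusted p = 0.0933). Gdf15, a cytokine released under stress, measured 10.9, 6.10 and 8.17 FPKM under HA, against 13.2, 31.8 and 16.2 FPKM under PBS (log2 difference -1.13, SE 0.32, adjusted p = 0.143). All HA livers lay below all PBS livers in these 3 of the 14 tested genes. That count was near the 19.2% of all tested genes of which this was true. Cdkn1a, the best known target of p53 and one of the cell cycle genes above, overlapped between groups.

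Of 21 growth signals and immediate early genes, 18 were tested and 0 passed in either direction, against 0.8% of all tested genes. At an unadjusted p under 0.05 (limma), 1 was higher and 1 lower with HA, against 4.61% of all tested genes higher and 13.1% lower. 1 of 18 in each direction is close to or under these shares. Egfr, the receptor of epidermal growth factor, measured 33.8, 23.9 and 21.5 FPKM under HA, against 9.96, 19.7 and 8.69 FPKM under PBS (log2 difference 1.05, SE 0.30, limma adjusted p = 0.143), and its groups did not overlap. Met, the receptor of hepatocyte growth factor, averaged 12.4 ± 1.14 FPKM with HA and 16.2 ± 2.71 FPKM under PBS (SD, n = 3 each). Jun, a component of AP-1, measured 13, 3.28 and 11.5 FPKM under HA, against 14.4, 16.6 and 19 FPKM under PBS, and Gadd45g, a stress gene, 10.9, 10.7 and 3.27 FPKM under HA, against 14.1, 10.1 and 13 FPKM under PBS. HA replicate 1 was the highest library in 1 of these 21 genes (4.76%) and in 4 of the 18 p53 targets (22.2%).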
